A study of Mus musculus with 12 samples.

Results

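Of the 190469 ZBTB43 affinity peaks deposited for mouse genomic DNA, 1799 on the autosomes overlapped protein-coding sequence (CDS) by at least 1 bp. The SssI list gave 1649 of them, out of 169284 autosomal peaks, and the TKO list gave 150, out of 14554. These peaks were chosen by position alone, from CDS features of protein-coding transcripts in GENCODE M21, and their scores played no part in the choice. In the affinity-seq experiment, full-length ZBTB43 fused to maltose-binding protein (MBP) and held on magnetic beads captured sonicated mouse DNA, and MBP alone served as the background. The TKO DNA came from male ES cells of the genotype Dnmt1-/-Dnmt3a-/-Dnmt3b-/-, a single clone with an embryonic age of 3.5 dpc in the labels, and so carried no CpG methylation. The SssI DNA came from the lung of Wild type C57BL/6N male adult mice, 2 months old, and its CpGs had been methylated with the M.SssI enzyme. Of 12 libraries, 8 stand behind the 2 lists, with 2 in each of 4 conditions, and the 4 sperm libraries were not analysed here. The DNAs differed in cell source as well as in methylation, and the effects of source and methylation cannot be told apart. The duplicates were pooled before the authors called peaks, so a peak has no replicate error and the lists were not tested against each other. The score of a peak is the authors', 10 times the −log10 q-value, and was compared within its own list only. Shares carry Wilson 95% intervals, which cover counting error over peaks or tracts only.

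ZBTB43 is a zinc finger protein of the BTB family. Tracts in which purines and pyrimidines alternate, such as runs of CA or TG, can leave the right-handed double helix for left-handed Z-DNA, and they are common in mammalian introns and between genes. Coding sequence is held to a reading frame, and introns begin at a splice donor, with GT, and end at a splice acceptor, with AG. A tract was counted here where the alternation ran for at least 12 bp, tracts of only A and T were left out, and each peak was described by its longest tract.

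Peaks over coding sequence were mostly peaks of the neighbouring intron. The sequences below, read from GRCm38 on the strand of the gene, show that arrangement, with coding bases in capitals and intron bases in lower case. Hydin encodes a component of the central pair of motile cilia, and its TKO peak at chr8:110514873-110515353 (score 2415) held an intron tract of 119 bp that started 99 bp past the splice donor. Ubr2 encodes a ubiquitin ligase, and its SssI peak at chr17:46930442-46930955 (score 2309) held a tract of 152 bp that ended 109 bp before the coding exon. Ttll1 encodes a tubulin polyglutamylase, and its TKO peak at chr15:83492593-83493175 (score 2664) held several interrupted stretches, the longest of them 49 bp. The printed stretches lie at chr8:110514974-110515226, chr17:46930471-46930766 and chr15:83492600-83492846.
Hydin: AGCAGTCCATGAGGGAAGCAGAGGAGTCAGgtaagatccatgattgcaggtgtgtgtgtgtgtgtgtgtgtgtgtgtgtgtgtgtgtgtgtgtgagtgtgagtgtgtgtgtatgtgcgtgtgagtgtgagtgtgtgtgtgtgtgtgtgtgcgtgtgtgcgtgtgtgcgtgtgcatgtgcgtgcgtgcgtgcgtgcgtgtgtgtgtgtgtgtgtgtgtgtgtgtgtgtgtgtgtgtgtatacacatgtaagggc
Ubr2: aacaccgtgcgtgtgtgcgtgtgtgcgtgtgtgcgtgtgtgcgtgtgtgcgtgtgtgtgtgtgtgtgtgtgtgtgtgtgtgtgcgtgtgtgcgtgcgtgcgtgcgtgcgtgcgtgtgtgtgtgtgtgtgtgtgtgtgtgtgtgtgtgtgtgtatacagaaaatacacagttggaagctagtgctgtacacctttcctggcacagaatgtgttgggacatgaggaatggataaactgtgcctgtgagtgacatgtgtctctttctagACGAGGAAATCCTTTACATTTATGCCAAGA
Ttll1: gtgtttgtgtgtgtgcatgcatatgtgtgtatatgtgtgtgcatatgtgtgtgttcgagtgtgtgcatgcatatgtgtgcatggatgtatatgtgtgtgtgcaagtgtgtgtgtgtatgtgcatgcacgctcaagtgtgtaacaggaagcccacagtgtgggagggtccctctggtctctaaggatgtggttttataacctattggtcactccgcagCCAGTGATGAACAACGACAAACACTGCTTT
In each of these the capitals end or begin at a splice site, and the alternating run lies wholly in the lower-case intron.

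The longest tract lay in an intron in 1451 of 1649 SssI peaks, 88.0% (86.3 to 89.5), and in 116 of 150 TKO peaks, 77.3% (70.0 to 83.3). Among all autosomal peaks the intron share was 48.0% in the SssI list and 48.2% in the TKO list. Of those, 48.8% and 47.0% had their longest tract outside genes. A peak that touches a coding exon lies at a gene by the rule, so a higher intron share follows from the choice. The longest tract lay in an untranslated or non-coding exon in 125 SssI peaks, 7.58%, and 13 TKO peaks, 8.67%. Over all autosomal peaks these shares were 1.79% and 1.31%. A higher share here also follows from the choice of peaks at genes. The tract lay wholly in coding sequence in 10 SssI peaks, 0.606% (0.330 to 1.11), and in 0 TKO peaks, with an upper bound of 2.50%. With RefSeq in place of GENCODE, an alternative added after seeing the data, these counts were 20 of 1701, 1.18%, and 1 of 152, 0.658%. The 12 bp had to lie within the peak. The TKO peak over Me2 ended inside a coding tract of 12 bp and was counted as without a tract. With tracts of at least 10 bp the TKO count was 1 of 150, 0.667% (0.118 to 3.68). A further 6 SssI peaks and 1 TKO peak had a tract across the edge of a coding exon. The tract lay outside genes in 6 SssI peaks and 1 TKO peak. No tract was found in 51 SssI peaks, 3.09% (2.36 to 4.04), and 19 TKO peaks, 12.7% (8.26 to 18.9), against a background of 1.35% over all autosomal SssI peaks and 3.54% over all autosomal TKO peaks. Longest tracts without a single coding base thus numbered 1582 in the SssI list and 130 in the TKO list.

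**Figure D1:**
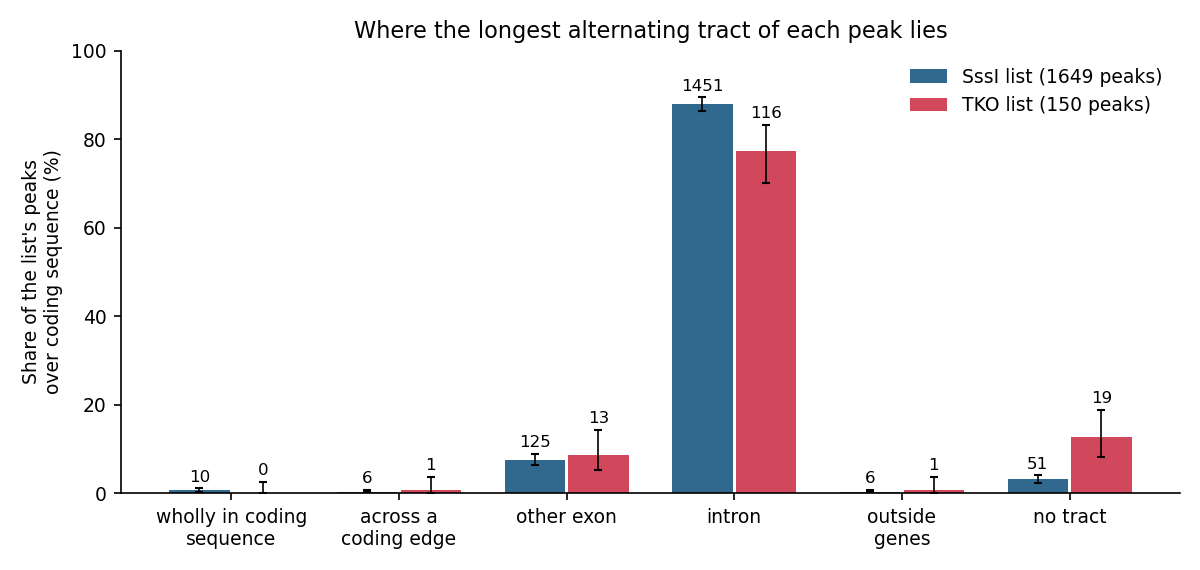
Share of the peaks over coding sequence by where their longest alternating tract lies, for the SssI list (1649 peaks) and the TKO list (150 peaks). Numbers above the bars are peaks and error bars are Wilson 95% intervals. Introns hold 1451 and 116 of the longest tracts, and coding sequence holds 10 and 0.

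Most of these peaks overlapped few coding bases. The median overlap with coding sequence was 36 bp in the SssI list (interquartile range 19 to 59) and 35.5 bp in the TKO list (13.2 to 65.8). At most 50 coding bases were covered by 1102 SssI peaks, 66.8% of them, and by 96 TKO peaks, 64.0%. The midpoint fell in coding sequence in 47 SssI peaks and 3 TKO peaks. Coding sequence made up 1.44% of autosomal bases. Peaks of the same widths would touch it at 3.20% of all possible positions on their own chromosomes for the SssI list and 3.71% for the TKO list. The measured shares were 0.974% (0.928 to 1.02) and 1.03% (0.879 to 1.21).

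Tracts beside coding exons lay more often behind the splice donor than in front of the acceptor. Of the intron tracts, 949 SssI tracts (65.4%, 62.9 to 67.8) and 85 TKO tracts (73.3%, 64.6 to 80.5) came after the exon that the peak touched. Behind the donor, the median distance from exon to tract was 48.0 bp in the SssI list and 70.0 bp in the TKO list. In front of the acceptor it was 60.5 bp and 97.0 bp. The tract came within 10 bp of the exon in 98 SssI peaks and 7 TKO peaks.

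**Figure D2:**
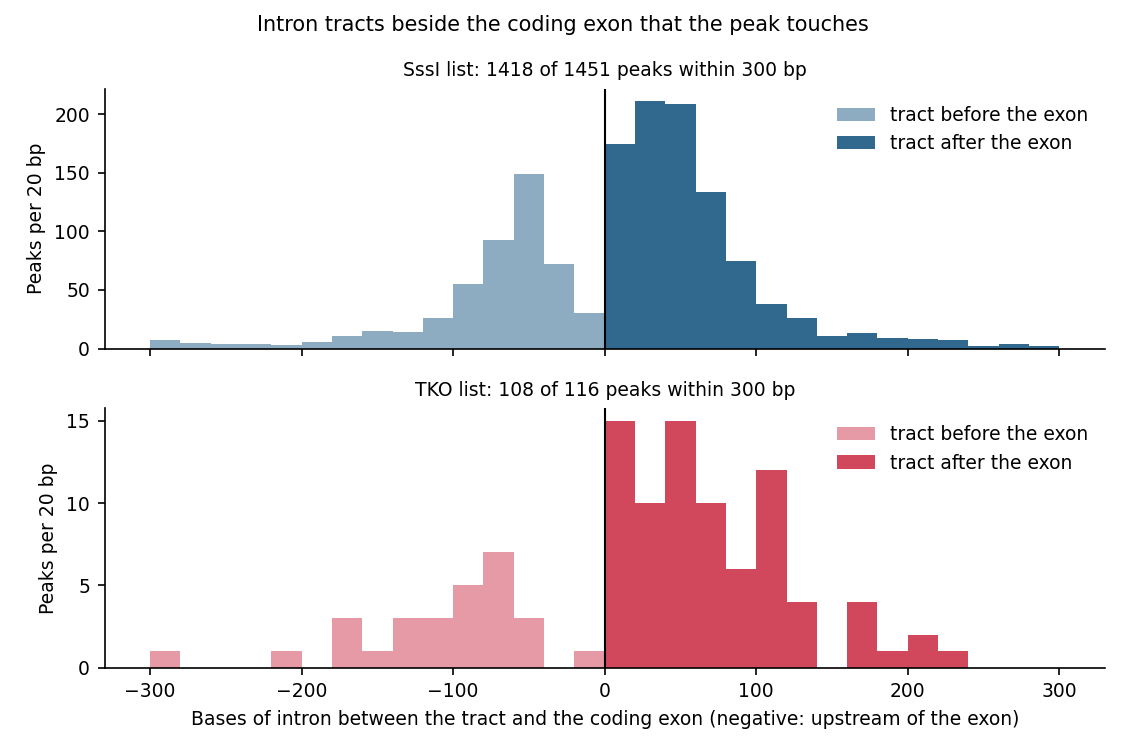
Distance in bases between the intron tract and the coding exon it neighbours, in 20 bp bins, with tracts upstream of the exon at negative values; the upper panel shows the SssI list (1418 of 1451 peaks lie within 300 bp) and the lower panel the TKO list (108 of 116). More tracts sit to the right of the line, behind the splice donor, than to its left.

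The genome holds more tracts close behind donors than close before acceptors. Within 24 bp of a coding exon there were 1576 intron tracts after the exon and 889 before it. Of these an SssI peak covered 20.1% (18.2 to 22.2) after the exon and 5.62% (4.29 to 7.34) before it, and a TKO peak covered 2.54% (1.87 to 3.44) and 0.112% (0.0199 to 0.634). Among tracts of at least 36 bp in the same 24 bp, SssI peaks covered 72.0% (66.5 to 77.0) of 279 after the exon and 50.8% (38.9 to 62.5) of 65 before it. TKO peaks covered 21 of the 279 and 1 of the 65. From 100 bp to under 250 bp away the SssI shares of such long tracts were 61.4% and 58.2%, and in introns at least 1000 bp from coding sequence 58.5%. Over all autosomal tracts an SssI peak covered 26.9% and a TKO peak 4.84%.

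The intron tracts were runs of CA, or of TG on the other strand, in 1197 of the 1451 SssI peaks (82.5%) and 87 of the 116 TKO peaks (75%), taking a class where it made up at least 80% of the steps. Mixed CA and CG tracts numbered 192 and 25. None was a plain CG run in either list. A CpG lay in the tract of 583 SssI peaks, 40.2% (37.7 to 42.7), and 61 TKO peaks, 52.6% (43.6 to 61.4). The median tract length was 48.0 bp in the SssI list and 53.5 bp in the TKO list. Over all autosomal peaks with a tract the medians were close, at 46.0 bp and 48.0 bp. Repeat classes and CpGs within tracts were counted for the peaks over coding sequence only. Whether they differ from those of other peaks was not tested.

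Coding sequence held alternating tracts, but short ones. Of 1551469 autosomal tracts, 3119 lay wholly in CDS, or 0.201%. Only 19 of them, 0.609% (0.390 to 0.95), reached 24 bp, against 27.2% of intron tracts and 28.1% of tracts outside genes, and the longest measured 75 bp. A CpG was present in 58.3% of the coding tracts and in 19.9% of the intron tracts. An SssI peak covered 20 of the 3119 coding tracts, 0.641% (0.415 to 0.988), and a TKO peak covered 1.

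The shares were then taken by length class. Among coding tracts of at least 36 bp, an SssI peak covered 7 of 11, 63.6% (35.4 to 84.8), beside 58.7% of intron tracts and 55.6% of tracts outside genes of that length. The TKO count was 0 of 11, with an upper bound of 25.9%, beside 6.59% in introns, so at this number of tracts no difference was detectable. Among coding tracts of 12 to 15 bp an SssI peak covered 10 of 2925, 0.342%, against 15.9% in introns. The classes between also had lower shares in coding sequence, with 2 of 175 tracts of 16 to 23 bp, 1.14% (0.314 to 4.07), against 27.1% in introns, and 1 of 8 tracts of 24 to 35 bp, 12.5% (2.24 to 47.1), against 36.6%. Short intron tracts often had a neighbour: 45.6% of them stood alone, with no other tract within 250 bp, against 85.1% of the short coding tracts. Lone tracts of 12 to 15 bp lay under an SssI peak in 0.121% of cases in CDS (3 of 2489, 0.0410 to 0.354) and in 0.238% in introns (0.215 to 0.262).

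**Figure D3:**
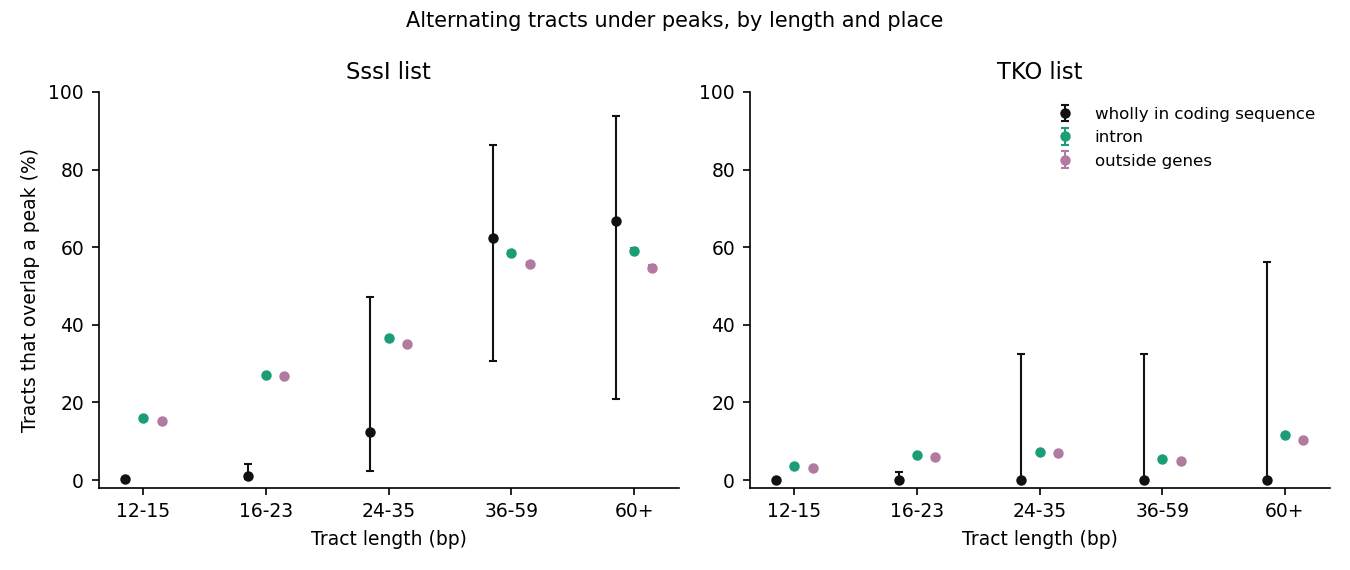
Percentage of all autosomal alternating tracts that overlap a peak, by tract length in bp, for tracts wholly in coding sequence, in introns and outside genes; the left panel is the SssI list, the right panel the TKO list, and error bars are Wilson 95% intervals. In the SssI list the coding tracts of 36 to 59 bp (5 of 8) and of at least 60 bp (2 of 3) sit beside the other places, while the coding tracts of 12 to 15 bp and of 16 to 23 bp sit near 0.

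The SssI peaks with a tract wholly in coding sequence are shown by their sequence, because in these the alternation itself is annotated as coding in GENCODE. The tracts of Det1, Snapc3, Me2 and Gm8369 were also coding in RefSeq, and those of the other 6 genes were not. The tract is in capitals with 9 bases on either side, on the strand of the gene.
Det1 (chr7:78843621-78843650): gtttgtgtgACACACGCACATtcaagtgtg
Snapc3 (chr4:83417841-83417873): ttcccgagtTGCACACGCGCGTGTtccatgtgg
4933415A04Rik (chr11:43587392-43587484): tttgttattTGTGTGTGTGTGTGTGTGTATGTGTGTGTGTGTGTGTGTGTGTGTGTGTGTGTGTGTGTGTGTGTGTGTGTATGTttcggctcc
Gm17571 (chr9:13446672-13446761): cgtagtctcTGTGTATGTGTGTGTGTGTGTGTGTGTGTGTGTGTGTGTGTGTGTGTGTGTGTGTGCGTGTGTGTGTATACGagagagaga
Gm47289 (chr9:119160653-119160726): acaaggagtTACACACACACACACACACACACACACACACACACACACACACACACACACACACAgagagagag
Det1, which encodes an adaptor of a ubiquitin ligase, had the highest score of the 10, 1428 (rank 4798 of 175775), from a peak of 398 bp at chr7:78843420-78843817 whose bases were all coding and which held 18 CpGs, yet its tract measured 12 bp. Snapc3, a subunit of the snRNA-activating complex, had a score of 55 over a tract of 15 bp with 3 CpGs, in the first coding exon. The TG run of 4933415A04Rik was the longest, 75 bp, in a gene with 1 coding exon, and its peak scored 471. Gm17571 followed with 72 bp and a score of 393, and Gm47289 held a CA run of 56 bp with a score of 38.

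The remaining tracts of this kind lay in Me2, Gm8369, Gstm7, Cyp2u1 and Gm10217. Me2, the mitochondrial malic enzyme, scored 821 with a tract of 12 bp that held 3 CpGs, and was the only one of the 10 with a TKO peak over it, which scored 308. Gm8369 scored 283 with a tract of 54 bp. Gstm7, a glutathione S-transferase, scored 89 with 53 bp, and Cyp2u1, a cytochrome P450, scored 52 with 37 bp, in both outside the principal transcript. Gm10217 scored 17 with 46 bp. In the coding frame of GENCODE the 10 tracts filled 135 whole codons. Of these 50 were TGT and 47 GTG, while ACA accounted for 11 and CAC for 9. Most of the codons came from tracts that were not coding in RefSeq. As background, TGT encodes cysteine, GTG valine, ACA threonine and CAC histidine. Of the 11 coding tracts of at least 36 bp in the genome, 1 was also coding in RefSeq.

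A tract crossed the edge of the coding exon in Mdga2, Gm21961, 6030445D17Rik, Gm10217, Rnd1 and Dhx34 in the SssI list and in Mdga2 in the TKO list. These genes were named for their class, after the values were seen. Mdga2, a cell adhesion protein of neurons, had the highest score of them in the SssI list, 1262, and 483 in the TKO list, with 3 of the 63 bases of its tract in CDS. In Rnd1, a small GTPase, 51 of 53 bases were coding. Gm21961 had 78 coding bases of 81, and 6030445D17Rik 48 of 66.

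Peaks with an intron tract reached high scores in both lists. In the SssI list the peaks with an intron tract and the highest scores included those of Ubr2 (2309), Pcnx2 (2290), Dhx32 (2210) and Bfsp1 (2209). Bfsp1 encodes a filament protein of the eye lens. Each of these had a TKO peak over it, with TKO scores between 224 at Bfsp1 and 1077 at Pcnx2. In the TKO list they were Ttll1 (2664), Slc36a3 (2617), Myo5c (2532), Hdac9 (2486) and Hydin (2415). The longest tract was as short as 13 bp at Hdac9, a histone deacetylase, and 22 bp at Myo5c, an unconventional myosin. The SssI peaks over these TKO peaks scored between 1082 at Ttll1 and 1952 at Myo5c.

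Peaks over coding sequence were wider and scored higher than their lists. The median width was 217 bp against 196 bp in the SssI list and 306 bp against 252 bp in the TKO list. The median score was 151 (interquartile range 73.0 to 537) against 108 in the SssI list and 640.5 (218 to 1576) against 193 in the TKO list. A wider peak has more room to touch an exon, so scores were also set side by side within width classes. In peaks narrower than 200 bp the medians were 70.0 against 69.0 for other SssI peaks and 80.5 against 72.0 for other TKO peaks. In peaks of 200 to 299 bp they were 184 against 179 and 269 against 190. In the SssI list these classes held 626 and 593 of 1649 peaks, so most SssI peaks lay where the medians were close. In the TKO list they held 16 and 56 of 150. In peaks of 300 to 499 bp the medians were 1026 against 678 and 1184 against 630.5. In peaks of at least 500 bp they were 1313 against 1090.0 and 1948 against 1288. These wider classes held 50 and 28 of the TKO peaks, so most TKO peaks lay where the medians were further apart. The median number of CpGs per peak was 3.00 against 1.00 in the SssI list and 5.00 against 2.00 in the TKO list.

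A TKO peak overlapped 312 of the 1649 SssI peaks over coding sequence, 18.9% (17.1 to 20.9), against 8.47% of all autosomal SssI peaks. In peaks of 300 to 499 bp the shares were 53.7% (47.7 to 59.6) against 37.7% of other SssI peaks, and in wider ones 83.8% (77.3 to 88.7) against 66.5%. In the narrower classes, which held most of the peaks, few peaks were shared. Under 200 bp they were 3 of 626, 0.479% (0.163 to 1.40), against 0.243% of other SssI peaks. From 200 to 299 bp they were 5.06% (3.57 to 7.13) of 593 against 3.78%. In each of these classes the interval included the share of the other peaks. In the other direction 146 of 150 TKO peaks overlapped an SssI peak, 97.3% (93.3 to 99.0), against 99.4% of all autosomal TKO peaks. The 4 without one lay over Rnf214, Apoc1, Ano2 and Ppp6r3. Rnf214 scored 627, from a peak of 271 bp with a 14 bp tract in an untranslated or non-coding exon, and the others scored between 42 at Ppp6r3 and 70 at Apoc1, an apolipoprotein of plasma lipoproteins.

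The peaks without a tract included some of the highest scores of the TKO list. Those of Arhgap26 (4234, rank 1 of 14694), Slc12a2 (3454), Bora (3268), Zbtb43 (3077) and Cbr2 (2773) led, and each also had an SssI peak. The score of 4234 was also reached by a TKO peak away from coding sequence, and equal scores were ranked by width. Arhgap26 encodes a GTPase-activating protein, Slc12a2 a sodium, potassium and chloride cotransporter, and Bora a cofactor of mitotic kinases. In the SssI list Ing5 (2116), Entpd7 (2105), Hsd17b4 (1977), Arhgap26 (1715) and Fbxo25 (1605) led. Ing5 is a reader of methylated histone H3, Entpd7 a nucleotide-hydrolysing enzyme, and Hsd17b4 a peroxisomal enzyme of fatty acid oxidation.

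In place of an alternating tract, several of these introns held short units in tandem, which are printed because they carry the pattern. Coding bases are in capitals, the intron follows in lower case from the splice donor, and the strand is that of the gene. The stretches lie at chr14:99060282-99060525, chr11:120731701-120731944, chr1:93811925-93812168 and chr8:13921911-13922099.
Bora: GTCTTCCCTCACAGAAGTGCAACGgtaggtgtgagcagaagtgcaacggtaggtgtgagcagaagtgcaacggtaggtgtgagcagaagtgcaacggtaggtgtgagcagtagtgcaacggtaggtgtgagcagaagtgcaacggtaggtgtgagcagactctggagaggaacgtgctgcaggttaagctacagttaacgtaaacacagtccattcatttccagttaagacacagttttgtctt
Cbr2: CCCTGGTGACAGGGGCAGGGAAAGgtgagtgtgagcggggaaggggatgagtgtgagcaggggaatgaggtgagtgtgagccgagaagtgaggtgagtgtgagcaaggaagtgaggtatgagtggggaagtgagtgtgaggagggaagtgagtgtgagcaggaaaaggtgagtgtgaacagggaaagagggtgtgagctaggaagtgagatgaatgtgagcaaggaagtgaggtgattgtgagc
Ing5: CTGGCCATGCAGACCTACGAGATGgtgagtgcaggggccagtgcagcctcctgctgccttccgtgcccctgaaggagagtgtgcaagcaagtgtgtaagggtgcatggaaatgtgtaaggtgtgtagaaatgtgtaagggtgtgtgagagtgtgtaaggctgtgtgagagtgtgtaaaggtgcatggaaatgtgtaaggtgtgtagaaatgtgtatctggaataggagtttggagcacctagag
Fbxo25: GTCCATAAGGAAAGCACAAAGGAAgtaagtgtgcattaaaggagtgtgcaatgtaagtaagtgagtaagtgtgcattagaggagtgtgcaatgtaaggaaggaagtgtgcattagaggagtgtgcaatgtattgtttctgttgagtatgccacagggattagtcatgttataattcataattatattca
In Cbr2, which encodes a carbonyl reductase abundant in lung, the first intron bases recur down the intron in degenerate copies. The 6-letter motif AGTGTG, or CACACT on the other strand, occurred 16 times in the TKO peak over Cbr2, 11 times over Entpd7, 6 times over Fbxo25 and 5 times over Ing5, and none of these copies lay in coding sequence. Coding bases made up between 1.09% of the TKO peak, at Entpd7, and 31.2%, at Ing5. Bora held 1 copy, and its unit differed.

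This motif was picked after the sequences had been seen. It alternates for 5 of its letters, and any stretch GTGTG directly after an A holds it. At least 1 copy lay in 45 of the 51 SssI peaks without a tract, 88.2% (76.6 to 94.5). The share was 48.4% in the SssI peaks over coding sequence that had a tract and 40.7% in all autosomal SssI peaks. It was 16% in windows of 244 bp laid end to end over the autosomes. At least 3 copies lay in 23 of the 51, 45.1%, and in 0.268% of the windows. The share was 11.2% in the SssI peaks over coding sequence that had a tract and 6.63% in all autosomal SssI peaks. In the TKO list at least 1 copy lay in 18 of 19 peaks without a tract, 94.7% (75.4 to 99.1). That share was 67.9% in the TKO peaks over coding sequence that had a tract and 67.1% in all autosomal TKO peaks. At least 3 copies lay in 10 of the 19, 52.6% (31.7 to 72.7), against 0.802% of windows of 433 bp. The share was 42.0% (33.9 to 50.5) in the TKO peaks over coding sequence that had a tract, an overlapping interval. Over all autosomal TKO peaks it was 36.6%. Over all autosomal peaks without a tract, wherever they lay, at least 3 copies occurred in 30.8% in the SssI list and 56.1% in the TKO list. At least 1 copy occurred in 59.5% and 77.5% of them. Of the 235 copies in the SssI peaks without a tract 202 lay outside coding sequence, and of the 107 in such TKO peaks 105 did. The Atg2a peak alone held 43 of the 235. Most bases of most of these peaks were not coding, and copies per base in and outside coding sequence were not compared.

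The motif was also counted in the introns after all coding exons, those it had been read from included. Of 175954 coding exon ends followed by an intron, an SssI peak covered 0.623% and a TKO peak 0.0631%. Where the first 200 bases of the intron held a tract, the shares were 7.12% (6.71 to 7.55) and 0.622% (0.507 to 0.764). These tracts had any length from 12 bp, and exon ends were not split by tract length. Counted over tracts within 250 bp after a coding exon, SssI peaks covered 25.6% of those of at least 12 bp and 64.1% of those of at least 36 bp. Without a tract and without AGTGTG on the gene's strand they were 0.0295% and 0.00687%. Without a tract but with at least 3 copies, a peak covered 12 of 86 exon ends in the SssI list, 14.0% (8.17 to 22.8), and 7 of 86 in the TKO list, 8.14% (4.00 to 15.9). Without the exon ends of Bora, Cbr2, Entpd7, Fbxo25 and Ing5, an alternative added after seeing the data, these were 9 of 83, 10.8% (5.81 to 19.3), and 4 of 83, 4.82% (1.89 to 11.7). Since the motif was chosen on peaks of these lists, the shares are a description. A match to these letters describes the sequence and does not mark a binding site.

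**Figure D4:**
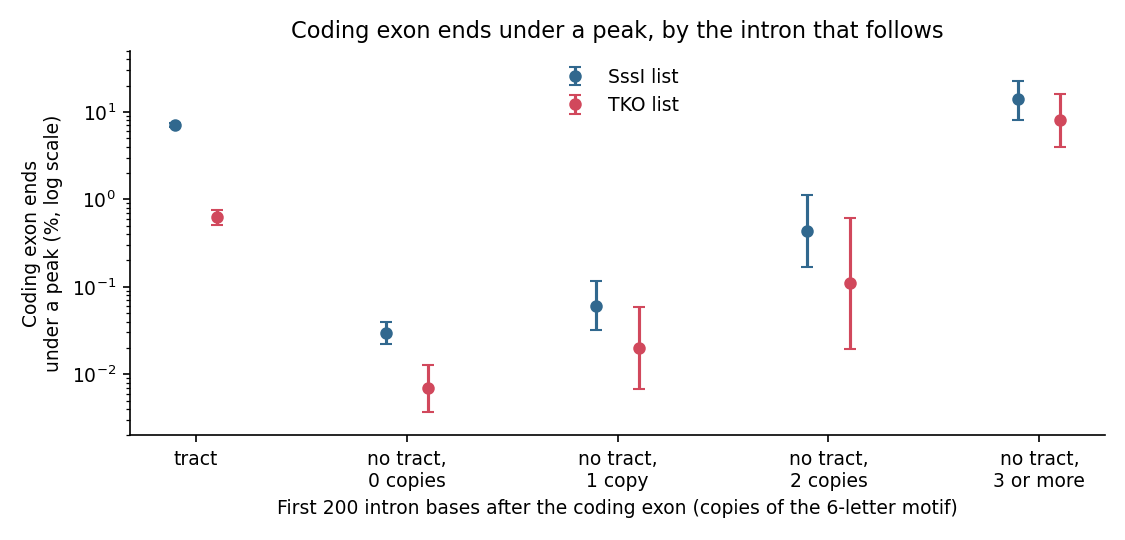
Percentage (log scale) of coding exon ends under a peak, by what the first 200 bases of the following intron hold: a tract of any length from 12 bp, or no tract and 0, 1, 2 or at least 3 copies of the 6-letter motif on the gene's strand. Points are shares over all such exon ends of the autosomes with Wilson 95% intervals; with at least 3 copies they reach 14.0% in the SssI list and 8.14% in the TKO list, with the genes the motif was read from kept in.

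Zbtb43 itself was under peaks over nearly the whole of its coding sequence. The gene lies on the reverse strand at chr2:33450287-33468559 and has 2 coding exons, of 88 bp and 1424 bp, parted by an intron of 7142 bp. A TKO peak of 1610 bp at chr2:33453597-33455206 (score 3077, rank 52) covered the long exon, and one of 292 bp at chr2:33462164-33462455 (score 374) covered the short one. Together the TKO peaks held all 1512 coding bases and 185 bases of the intron, 2.59% of it. The SssI peaks at chr2:33453695-33455117 (score 495, rank 23364) and chr2:33462235-33462377 (score 14, rank 175727) held 1506 of the coding bases, 99.6%, and 31 intron bases. The second of these scores is near the lowest of the autosomal SssI peaks, 13. The SssI peak over the long exon began 5 bp beyond one edge of the coding exon and stopped 6 bp short of the other. A further SssI peak within the gene, at chr2:33467807-33467926 (score 25), lay upstream of the start codon and over neither coding exon.

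Neither long-exon peak held an alternating tract of at least 12 bp, and each held 2 copies of AGTGTG. The TKO peak over the short exon held a tract of 12 bp, in the intron upstream of that exon. The TKO peaks ran past the coding edges by 83 to 103 bp, and the SssI peak over the short exon by 24 and 31 bp. The long-exon peaks were the widest of all peaks over coding sequence in both lists. Among the TKO peaks over coding sequence, only the long-exon peak of Zbtb43 had at least 50% of its bases, 88.4%, in CDS. The capture protein was made in bacteria from cloned Zbtb43 complementary DNA. Whether DNA of that clone took part in these peaks was not tested.

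**Figure D5:**
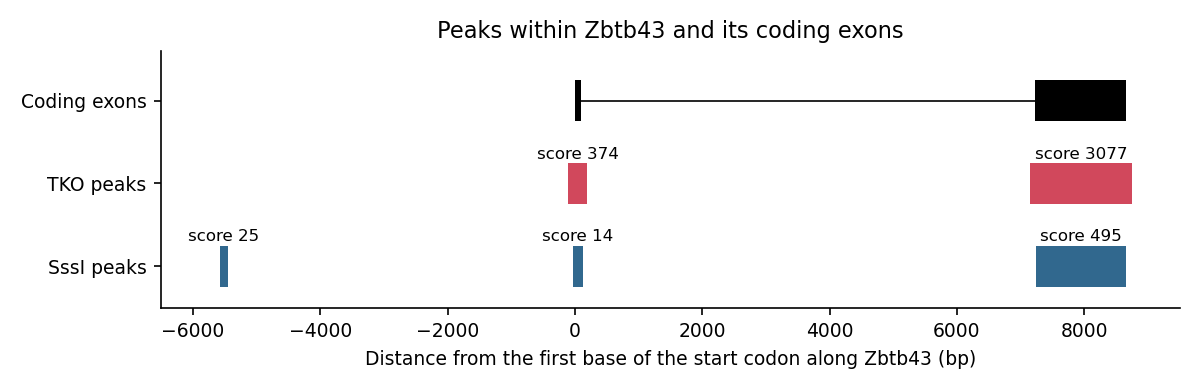
Coding exons of Zbtb43 (black) and the peaks within the gene in the TKO and SssI lists, along the gene from the first base of the start codon, in bp, with the score of each peak. Both lists have a peak over each of the 2 coding exons, of 88 bp and 1424 bp, most of the 7142 bp intron is uncovered, and 1 SssI peak of score 25 lies upstream of the start codon.

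At least 90% of the bases were coding in 10 SssI peaks and in 0 TKO peaks. Besides the long-exon peak of Zbtb43, these lay over Det1, 4933415A04Rik, Nlrc3, Gm2696, Snapc3, Gm47289, Gm7861, Peg3 and Defa29, which were named after the values were seen. The Nlrc3 peak, over a gene for a nucleotide-binding receptor of innate immunity, spanned 761 bp with 745 in coding sequence, held no tract and had a score of 297. It held 15 copies of AGTGTG, all in coding sequence. Gm7861, Peg3 and Defa29 had scores of 33 each, near the lower end of the list.

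The SssI peaks fell over the CDS of 1495 genes, 7.21% of 20733 autosomal coding genes, and the TKO peaks over 144, or 0.695%. Both lists had a peak in 141 genes. Most genes had 1 peak, 1362 in the SssI list and 138 in the TKO list. Genes with a peak had a median of 14 coding exons in the SssI list and 17 in the TKO list, against 6 over all coding genes. The share of genes with an SssI peak was 0.581% among genes with 1 coding exon, 5.06% among those with 5 to 9, 19.1% among those with 20 to 39 and 45.9% (40.6 to 51.3) among those with at least 40. In the TKO list these shares were 0%, 0.372%, 2.07% and 6.69% (4.46 to 9.92).

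At least 3 SssI peaks fell over 18 genes, which were mostly long. Dnah6, Dnah8 and Hydin had 5 each, and Dnah17, Itpr3, Vps35l and Xylb 4 each. A count of 3 was reached by Abcc2, Ank1, Ank2, Atp13a4, Btnl10, Dnah12, Dock5, Dst, Myom1, Pcnx2 and Piwil4. The Dnah genes encode heavy chains of the dyneins that move cilia and flagella, and Dnah8 has 92 coding exons. All 5 peaks of Dnah6 had an intron tract, with scores from 120 to 317, and none had a TKO peak. The 5 peaks of Hydin scored from 49 to 1532 and 3 of them had a TKO peak. Xylb, the xylulokinase gene, reached 4 peaks with 19 coding exons, and Btnl10 reached 3 with 5. No gene had 3 TKO peaks. The 6 genes with 2 were Cdh23, Dnah10, Myo5c, Ncam1, Piwil4 and Zbtb43, which falls outside the naming rule and was read off after the count. Dnah10 had the closest pair of scores, 1992 and 2023.

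Gene families, counted by symbol prefix, were read against the 7.21% of all coding genes with an SssI peak. Kinesins and dyneins (Kif, Dnah) had an SssI peak in 18 of 57 genes, 31.6%, with a median of 23 coding exons per gene, and genes whose symbols begin with Col, mostly collagens, in 17 of 50, 34.0%, with a median of 40. Of genes with other prefixes, SssI peaks touched 43 of 372 solute carriers (Slc), 11.6%, with a median of 10 coding exons. They touched 15 of 135 genes of potassium, sodium and calcium channels, 11.1%, with a median of 5. With the Adam prefix it was 8 of 58 genes, 13.8%, with a median of 21. Chromatin enzymes gave 7 of 41, 17.1%, with a median of 20, and mucins 2 of 15, 13.3%, with a median of 10. Over all coding genes the share was 11.4% with 10 to 19 coding exons and 19.1% with 20 to 39. Shares near that of all genes were those of genes with the tubulin and actin prefixes, 5 of 55 or 9.09%, cadherins, 5 of 77 or 6.49%, and keratin genes, 6 of 113 or 5.31%. The Adam prefix takes in Adamtsl genes, which encode proteins without the protease domain and made up 4 of the 8, and of the 5 genes with the actin prefix only Actc1 encodes an actin. The chromatin enzymes with a peak included Dnmt1, the maintenance DNA methyltransferase, and Kmt2d, a histone methyltransferase, in both lists. Most families with a median of 1 to 4 coding exons had lower shares, and the counts were 8 of 1136 olfactory receptors, 4 of 329 vomeronasal receptors, 8 of 458 zinc finger genes, 1 of 88 homeobox genes and 0 of 67 histones.

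In the TKO list, where 0.695% of all coding genes had a peak, the families gave 7 of 372 solute carriers, 2 of 50 genes with the Col prefix, 2 of 41 chromatin enzymes, and 1 each of 458 zinc finger genes, 77 cadherins, 135 channel genes and 57 kinesins and dyneins. The zinc finger gene was Zbtb43, the cadherin Cdh23, the channel Cacna1e and the dynein Dnah10. The other 8 families had none.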

How the data were processed

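The data are 2 peak lists of ZBTB43 affinity-seq, for TKO and SssI DNA. Alignment to mm10 was done by the authors with BWA mem 0.7.17, and they called peaks with MACS2 2.2.7.1 at default parameters, with duplicates combined and the MBP libraries of the same DNA as control. Each deposited row holds a position and a score, which is 10 times the −log10 q-value and rises with depth. In both lists the highest peak number exceeds the number of rows, so part of the called peaks is absent. The files hold no read counts, so depth is unknown.

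From the files, overlaps of at least 1 bp with CDS were counted against GENCODE M21 on GRCm38, the assembly of mm10, on the autosomes. Tracts of alternating purines and pyrimidines, with a minimum of 12 bp, were found over the whole genome, those of only A and T left out, and the longest within a peak was placed whole. Wilson 95% intervals were computed for shares. No test was made, since each DNA has 1 pooled list. Python 3.11.15, numpy 2.4.6, pandas 2.3.3 and scipy 1.17.1 were used, and matplotlib 3.10.9 for plots, and the counting was tested on simulated data. CpGs and sequence are those of the reference, not of the DNA captured.

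The members and gene families were chosen with earlier results of these data known. Genes were named by a rule: in each list the 10 highest-scoring peaks with the tract wholly in CDS, the 5 with the longest such tract, the 5 highest-scoring with an intron tract and without a tract, genes with at least 3 peaks, and TKO peaks without an SssI peak; names outside it are marked. Families were counted by symbol prefix. A gene that the rule selects is not reported here.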

Additional observations from a re-analysis of the deposited data

How the results depend on the processing

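Other settings gave 48 values, and 36 of them left the shares inside their intervals and the counts changed by less than 1.5 times. Requiring at least 50% of the peak in CDS left 39 SssI and 1 TKO peaks, and requiring the midpoint in CDS left 47 and 3. Among those 47 the tract lay wholly in coding sequence in 17%, and with RefSeq CDS, an alternative added after seeing the data, in 1.18% of SssI peaks and in 1 TKO peak in place of 0. The SssI share of coding tracts under a peak was 0.319% for tracts of at least 10 bp, 5.15% for 16 bp and 42.1% for 24 bp, and the TKO share was 0% for both 16 and 24 bp. Counting a peak as shared only where at least 50% of it was covered gave 15.9% in the SssI list. No paired analysis was possible because the duplicates were pooled before peak calling, and for the same reason no library could be left out. Depth is unknown, so a peak missing from a list may be a matter of depth, which was not tested.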
